A study of Mus musculus with 7 samples.

Results

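Tissue-restricted genes are genes whose products belong to a single organ or to a few organs, such as digestive enzymes, hormones, plasma proteins and milk proteins. The 48 genes described here are products of the pancreas, gut, liver, mammary gland, salivary and other glands, nerve and eye. They were taken from a fixed list of symbols, and every probe that the platform annotation gives to one of these symbols was used. In the annotation 41 of the 48 genes had a probe, 45 probes in all, out of 16593 genes with a symbol on the array. Mup1, Mup4, Csn1s1, Ins1, Spink5, Pnlip and Spt1 had no probe under these symbols and are not analysed here, apart from 1 probe under the current symbol of Spt1. The list was drawn up with the genotype comparison in view, so the differences between genotypes below are a description and not a test of the list. Most of the products are secreted, but Urah, S100g, Crabp1 and Pcp4 encode intracellular proteins, and Gp2 is anchored in the membrane.

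The thymus displays such genes to developing T cells. Medullary thymic epithelial cells transcribe many genes of peripheral organs, partly under the regulators Aire and Fezf2, and thymocytes that react strongly to the products are deleted or diverted to the regulatory lineage. Each tissue-restricted gene is transcribed in only a small share of these epithelial cells at a time, so a whole-thymus extract holds little of each transcript. RelB is a subunit of NF-kB that acts downstream of receptors of the TNF family and is needed for the development of the thymic medulla.

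Whole thymi of mice aged 8 weeks were profiled on Illumina expression arrays, with 1 array for each mouse. The RelB+/- group held 4 mice and the RelB-/- group held 3. The controls were heterozygous for RelB, although their titles call them wild type, and a group of RelB+/+ mice was not analysed here. No other allele or treatment is given in the labels. Nothing in the labels gives littermates or breeding, so the spread between samples is that between labelled mice.

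Array medians of raw intensity ran from 103.5 to 142.3, and 45.9% to 49.4% of the 25695 probes were detected, meaning a detection p under 0.05 against the array's background. As normalized log2 intensity, the Relb probe read 7.0, 7.12, 7.10 and 7.15 in RelB+/- mice 1 to 4. In RelB-/- mice 1 to 3 it read 4.68, 4.39 and 4.31. The probe was detected on 4 of 4 and 0 of 3 arrays. All levels below are on this scale, where the lowest detected signal lay between 4.83 and 4.98 depending on the array. Differences are RelB-/- minus RelB+/-, with the standard error (SE) of a limma fit across 9569 genes, and a gene was called at an adjusted p under 0.05. Of 9 thymocyte markers checked against the tissue label, 7 passed the filter, with list means of 9.81 to 10.3, while the probe of Cd8a was detected on no array. Of 10 heart muscle genes only 2 passed the filter. The means of these 2 transcripts were 11.1 on RelB+/- 2 and 12.9 on RelB-/- 3, against 5.79 to 6.29 on the other arrays.

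Promoters are shown here for members that differed most and were found in the RefSeq promoter table (GRCm38.p6), with Cela1 for comparison because its levels overlapped between genotypes. Each line gives the 120 bases before the transcription start, 5′ to 3′ on the strand of the gene, and capitals mark matches to TATANA (N is any base) in the last 50 bases.
Gp2, chr7:119459273-119459392, minus strand: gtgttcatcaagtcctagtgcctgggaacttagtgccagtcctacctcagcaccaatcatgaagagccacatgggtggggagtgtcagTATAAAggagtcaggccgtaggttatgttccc
Vmo1, chr11:70514617-70514736, minus strand: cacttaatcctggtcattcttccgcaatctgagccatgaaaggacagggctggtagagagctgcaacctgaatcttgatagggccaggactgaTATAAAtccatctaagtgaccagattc
Urah, chr7:140835018-140835137, plus strand: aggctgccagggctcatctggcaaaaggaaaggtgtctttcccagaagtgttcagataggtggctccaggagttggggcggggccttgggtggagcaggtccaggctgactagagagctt
Csn2, chr5:87699426-87699545, minus strand: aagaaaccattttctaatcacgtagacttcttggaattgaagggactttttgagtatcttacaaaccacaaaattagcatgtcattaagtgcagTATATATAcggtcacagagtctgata
Cela1, chr15:100687921-100688040, minus strand: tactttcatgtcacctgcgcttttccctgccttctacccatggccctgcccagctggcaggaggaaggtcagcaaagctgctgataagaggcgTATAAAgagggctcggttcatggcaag

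The match began 32 bases before the start in Gp2, 27 in Vmo1 and Cela1 and 26 in Csn2, where 2 matches overlap. Urah, shown at the more upstream of its 2 listed starts, had none. The promoter table held 42 promoters of 39 members. TATAAA, the core of the TATA box, stood in the last 50 bases on the gene's strand in 13 of these 42 promoters (31.0%), against 2.63% of all 32851 promoters. On the opposite strand it was found in 0 of 42, against 1.10%. The looser TATANA, chosen after the Csn2 promoter was read, matched 35.7% of the members' promoters and 4.4% of all. The 250 bases before the start held a median of 2.5 CG dinucleotides in the members and 6 in all promoters. The NF-kB consensus, searched on both strands of those 250 bases, was found in 4 of 42 (9.52%), against 7.25% of all. It was found in none of the 5 promoters of Gp2, Vmo1, Urah and Csn2. These shares describe letters in a window and were compared without a test.

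Of the 41 members with a probe, 5 were lower in RelB-/- thymus and were detected in all 4 RelB+/- mice. They were Gp2 of the exocrine pancreas, Vmo1 of the glands, Urah of the liver, Csn2 of milk and Tff1 of the gut, so each came from a different organ group. Only 10 members, with 11 probes, passed the filter on dim probes, which asked for detection on at least 3 arrays. The other 5 that passed, Cela1, Apoa1, Tff2, Reg1 and Fgg, were not called, and 0 members were called higher by limma. At an unadjusted p under 0.05 by limma, 6 members were lower and 0 higher. The share of all genes at that threshold is not given here. Among all 9569 genes tested, 0.669% were called lower and 0.105% higher. The groups did not overlap in the 5 called genes, as in 6.25% of all genes in the lower and 7.38% in the higher direction. Of the 11 probes, 8 passed on RelB+/- detections alone and 0 on RelB-/- detections alone. A low value in RelB-/- thymus was therefore built into much of this set. For that reason the median difference of the 10 genes, -1.10 against 0.025 over all genes, supports nothing about the list.

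**Figure D1:**
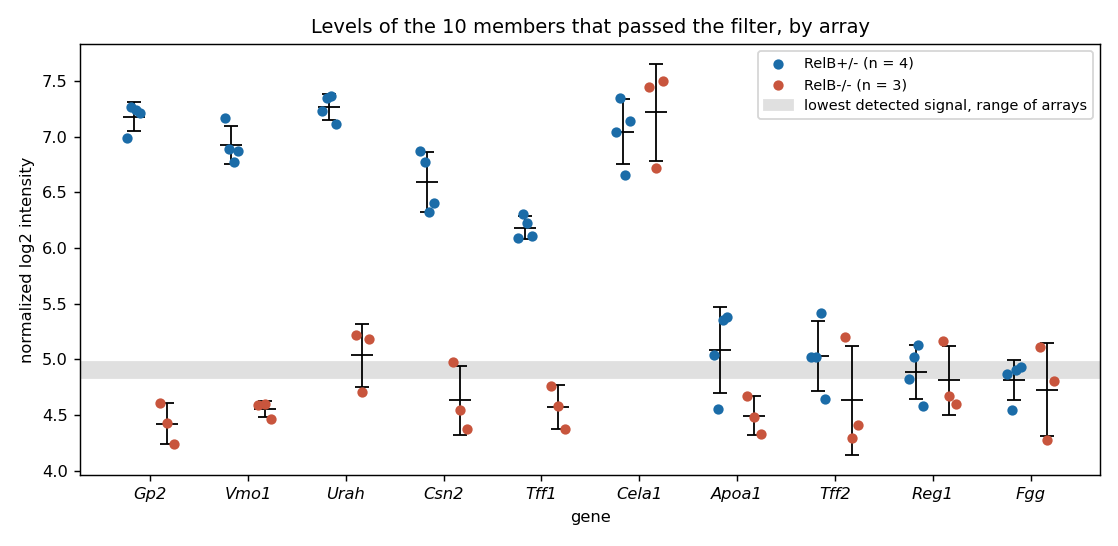
Normalized log2 intensity (vertical axis) of the 10 genes that passed the filter (horizontal axis), with 1 point for each array, a dash at the mean and bars of 1 SD; the grey band is the range over arrays of the lowest detected signal. Gp2, Vmo1, Urah, Csn2 and Tff1 sit at 6.09 or above on each RelB+/- array and at 5.22 or below on each RelB-/- array, whereas the other 5 genes overlap between genotypes.

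Gp2 encodes the main membrane glycoprotein of zymogen granules in pancreatic acinar cells and is also known from M cells of the gut. It read 6.99, 7.27, 7.24 and 7.21 in RelB+/- mice 1 to 4 and 4.61, 4.43 and 4.24 in RelB-/- mice 1 to 3. Every RelB+/- array was far above the lowest detected signal, and none of the RelB-/- arrays detected the probe. The difference was -2.76 (SE 0.15), and Gp2 was at least 4.75-fold lower. Such a bound sets the mean of the brighter group against the lowest detected signal, or the probe's own value where that was higher, on each array of the dimmer group. Every such bound here holds only for the background correction used. The Gp2 difference was -1.17 without that correction and -0.71 with the authors' processed values. Raw intensity, before any correction, ran from 189 to 318 in RelB+/- and from 101 to 120 in RelB-/- thymus.

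Cela1, a pancreatic elastase that is also made outside the pancreas, was the one member of this organ group detected on all 7 arrays. It read 7.04, 7.35, 6.65 and 7.14 in RelB+/- and 7.45, 6.72 and 7.5 in RelB-/- thymus. The groups overlapped, with a difference of 0.18 (SE 0.24). Its level in RelB+/- thymus was like that of Gp2 on the array scale, but probes differ in their response, so the genes cannot be ranked by it. Reg1, a secreted lectin of acinar cells, was near the detection limit, at 4.58 to 5.13 in RelB+/- (2 of 4 detected) and 4.60 to 5.16 in RelB-/- thymus (1 of 3 detected), with a difference of -0.077 (SE 0.20). Cpa1, a carboxypeptidase, was detected on no array, and Ctrb1, a chymotrypsinogen, on RelB-/- 1 only, at 5.0.

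Other genes of the exocrine pancreas from a fixed list of 17 were mostly below detection as well. This list and the further organ lists below were drawn up with earlier results of these data known. Their values are a description and no independent support. Of the 16 with a probe, 10 were detected on no array, among them Prss2, Cpb1, Cel and Clps. The list had 3 genes that passed the filter, and Spink1, a trypsin inhibitor secreted by acinar cells, was called lower. It read 6.52, 6.04, 6.01 and 6.62 in RelB+/- and 4.42, 4.39 and 4.4 in RelB-/- thymus, and was detected on 0 of 3 RelB-/- arrays. The groups were widely apart, with a difference of -1.89 (SE 0.19) and a bound of at least 2.58-fold.

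Vmo1, the homolog of a protein of the outer vitelline membrane of bird eggs, had 2 probes that passed. The brighter read 7.17, 6.89, 6.77 and 6.87 in RelB+/- and 4.59, 4.60 and 4.47 in RelB-/- thymus. Its difference was -2.37 (SE 0.14), with a bound of at least 3.98-fold. The dimmer probe read 5.95, 5.88, 4.98 and 5.17 against 4.49, 4.66 and 4.39, a difference of -0.98 (SE 0.26). Neither probe was detected on a RelB-/- array, and neither had overlapping groups, but on the dimmer probe RelB+/- 3 and RelB+/- 4 were well below RelB+/- 1 and RelB+/- 2. Tm4sf5, a tetraspanin-like gene next to Vmo1, was chosen after its values were seen. It averaged 5.64 in RelB+/- and 4.8 in RelB-/- thymus, with a difference of -0.84 (SE 0.23) that was not called.

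The other members from glands and surfaces stayed at or near background. Obp1a, an odorant-binding protein of nasal glands, was detected on no array. Svs5, a seminal vesicle secretion, was detected on RelB+/- 1 only, at 4.98, and Dcpp1, a protein of the demilune cells of the salivary gland, on RelB+/- 3 only, at 5.03. The platform annotation lists a probe for the salivary gene Spt1 under its current symbol, Mucl2. This probe was detected on no array, with levels of 4.25 to 4.47.

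Urah encodes 5-hydroxyisourate hydrolase, an enzyme of urate breakdown in the liver. It read 7.23, 7.35, 7.36 and 7.12 in RelB+/- and 5.22, 4.71 and 5.18 in RelB-/- thymus. Unlike Gp2, Vmo1 and Tff1 it was still detected on 2 of 3 RelB-/- arrays. The difference was -2.23 (SE 0.17), which is 4.68-fold with the background correction used. Raw intensity was 194 to 304 in RelB+/- and 112 to 153 in RelB-/- thymus.

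Apoa1, the main protein of high-density lipoprotein, read 5.04, 4.55, 5.35 and 5.39 in RelB+/- and 4.67, 4.48 and 4.33 in RelB-/- thymus. Detection was reached on 3 of 4 arrays of RelB+/- mice and on 0 of 3 of RelB-/- mice. The groups overlapped because RelB+/- 2 was low, and the difference of -0.59 (SE 0.22) was not called. Fgg, a chain of fibrinogen, overlapped fully, at 4.54 to 4.93 in RelB+/- and 4.28 to 5.11 in RelB-/- thymus, with a difference of -0.082 (SE 0.21).

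The plasma proteins left out by the filter were detected on no array or on 1 or 2 RelB+/- arrays. Alb, Apoh, Ttr, Fga and Fgb were detected on no array. Apoa2, another apolipoprotein of high-density lipoprotein, reached 5.48 on RelB+/- 3 and was also detected on RelB+/- 4, at 4.92. Ambp, the precursor of a microglobulin and of a protease inhibitor, was detected on RelB+/- 1 and RelB+/- 2, at 5.06 and 5.0. One of 2 probes of Ahsg, the plasma protein fetuin-A, was detected on RelB+/- 4, at 4.91. None of these liver probes was detected on a RelB-/- array. A further fixed list of 26 liver genes had 6 that passed and 0 called (limma), with a median difference of -0.71. Of these 6 genes, 4 had negative differences. Vtn, chosen after its values were seen, was higher in RelB-/- thymus, at 1.17 (SE 0.21). Its groups did not overlap, as in 7.38% of all genes in the higher direction.

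Csn2, the milk protein beta-casein, read 6.87, 6.77, 6.32 and 6.41 in RelB+/- and 4.98, 4.54 and 4.38 in RelB-/- thymus. Every RelB+/- array detected it, as did RelB-/- 1, the highest of its group. The difference was -1.96 (SE 0.21), against a group mostly at background. With the authors' processed values the difference was -0.44 and Csn2 was no longer called. Differences of other genes were smaller there too, as for Relb, at -0.66 against -2.64 here.

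Other caseins were at or near background. Csn1s2a, which lies next to Csn2, was detected on no array, and Csn3, kappa-casein, was detected on RelB+/- 2 only, at 5.12. Lalba, Wap and other milk genes from a fixed list of 6 gave 1 gene that passed, Xdh, with a difference of -0.25, and 0 called.

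Tff1 encodes a trefoil peptide secreted with the mucus of the stomach. It read 6.09, 6.31, 6.22 and 6.11 in RelB+/- and 4.77, 4.58 and 4.37 in RelB-/- thymus. The RelB+/- arrays lay within a narrow band, and no RelB-/- array detected the probe. The difference was -1.61 (SE 0.15), with a bound of at least 2.38-fold. With the authors' processed values the difference of Tff1 was -0.32, beside -0.66 for Relb, and Tff1 was not called.

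Tff2, another trefoil peptide, lies next to Tff1 in the genome. It read 5.02, 5.03, 5.42 and 4.65 in RelB+/- and 5.20, 4.29 and 4.41 in RelB-/- thymus. Its groups overlapped because RelB-/- 1 was among the highest arrays, and the difference of -0.40 (SE 0.26) was not called. Tff3, the trefoil peptide of intestinal goblet cells and the neighbour of Tff2, was detected on no array.

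The remaining gut members were detected on 1 or 2 RelB+/- arrays or on none. Reg3b, an antibacterial lectin, reached 5.83 on RelB+/- 2 and was detected on RelB+/- 3 at 4.89 by one of its 2 probes, and the other probe was detected on no array. Apoa4, an apolipoprotein of intestinal chylomicrons, was detected on RelB+/- 4 at 5.18 and on RelB+/- 1 at 4.90. Pyy, a hormone of enteroendocrine cells, was detected on RelB+/- 4 only, at 5.17. Reg3g and S100g, a calcium-binding protein of the intestine, were detected on no array.

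Islet hormones and the products of nerve and eye gave almost no signal in either genotype. Gcg, Sst, Ppy and Iapp were detected on no array. Ins2, the insulin gene known for its expression in medullary epithelium, was detected on RelB-/- 1 only, at 5.20, and on 0 of 4 RelB+/- arrays, where it read 4.28 to 4.88. Npy and Pmch, precursors of neuropeptides, Pcp4, a calmodulin-binding protein of Purkinje cells, and Rbp3, a retinoid-binding protein of the retina, were detected on no array. Crabp1, a retinoic acid-binding protein, was detected on RelB+/- 2 only, at 4.97. For genes below detection these arrays show neither a difference nor its absence.

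**Figure D2:**
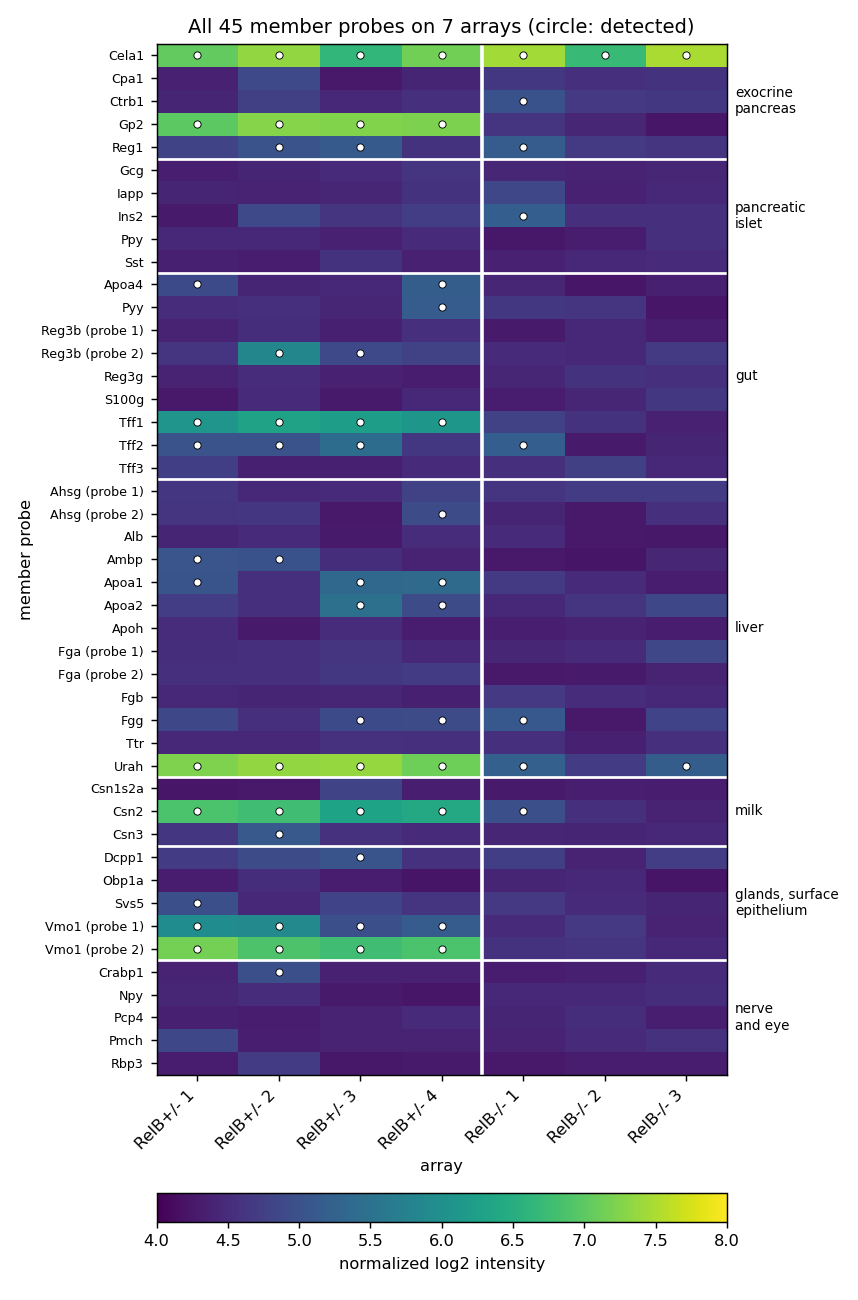
Normalized log2 intensity (colour) of all 45 member probes (rows, grouped by organ of origin) on the 7 arrays (columns), with a circle where the probe was detected. The circles on RelB+/- arrays run through Gp2, Vmo1, Urah, Csn2, Tff1 and Cela1 in every mouse and are scattered over different dim genes in different mice.

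Across all members, 52 of 180 probe readings were detected on RelB+/- arrays (28.9%) and 11 of 135 on RelB-/- arrays (8.15%). Over all probes of the array the shares were 48.1% and 46.9%. The list was drawn up with the genotype comparison in view, so the members' shares are a description and support nothing about the list. In number of genes, 20 members were detected on at least 1 RelB+/- array and 8 on at least 1 RelB-/- array, and 19 of the 41 were detected on none of the 7. Single RelB+/- arrays detected 11, 12, 13 and 12 members. The RelB-/- arrays detected 8, 1 and 2, so RelB-/- 1 stood apart from the others of its genotype. Without RelB-/- 1 the share of detected readings in RelB-/- thymus was 3.33%.

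**Figure D3:**
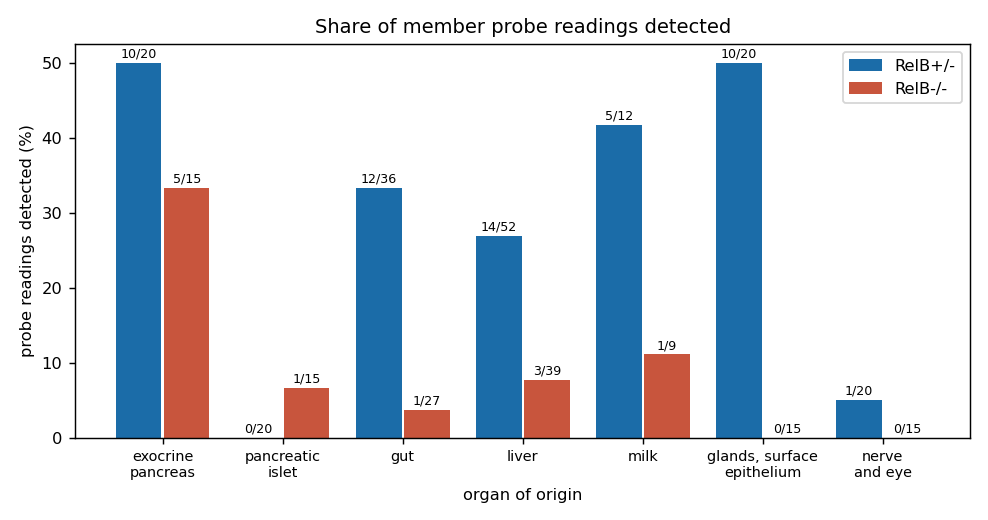
Percent of probe readings detected (vertical axis) for the members of each organ group (horizontal axis), by genotype, with the numbers of detected readings and of all readings above each bar. Exocrine pancreas and glands reached 50% in RelB+/- thymus, against 33.3% and 0% in RelB-/- thymus, and the islet group had 0 of 20 and 1 of 15.

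Which dim members were detected differed between the RelB+/- arrays. With 1 array for each mouse, a difference between mice cannot be told apart from measurement noise near the detection limit. Of the 34 member probes left out by the filter, 22 were detected on no array, 10 on 1 or 2 RelB+/- arrays alone and 2 on 1 RelB-/- array alone. The detected readings among these 34 probes numbered 14 of 136 in RelB+/- (10.3%) and 2 of 102 in RelB-/- thymus (1.96%). Over all 13230 probes left out by the filter the shares were 5.62% and 5.04%. The members' shares again describe a list drawn up with the genotype comparison in view. By array the RelB+/- counts were 3, 4, 3 and 4. The RelB+/- SD of the called genes was 0.10 for Tff1, 0.11 for Urah, 0.13 for Gp2, 0.17 for Vmo1 (0.49 by its dimmer probe) and 0.27 for Csn2 (n = 4), where the median SD over all genes was 0.25. Called genes are selected for a small spread, and left-out probes can be detected on at most 2 arrays, so the 2 sets are not compared.

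**Figure D4:**
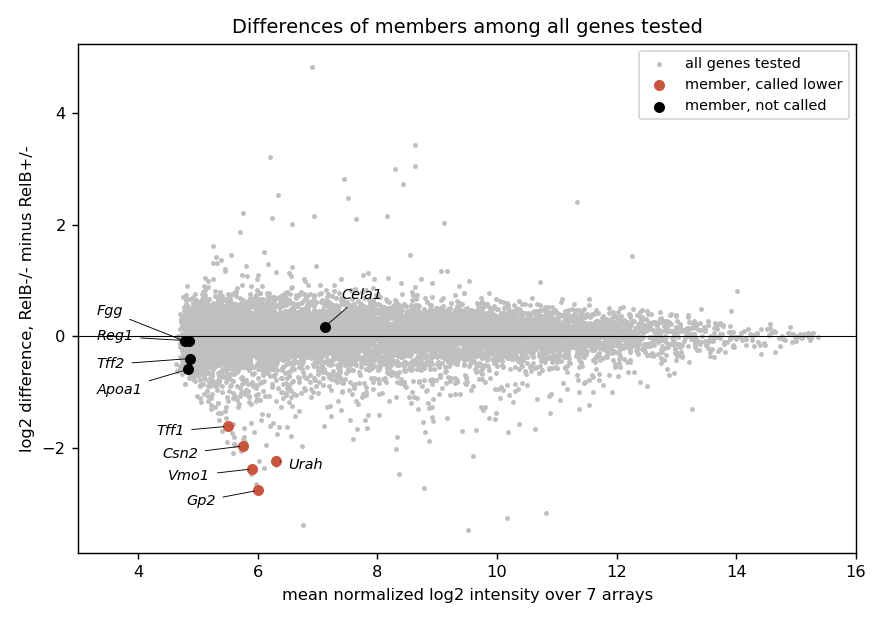
Log2 difference, RelB-/- minus RelB+/- (vertical axis), against the mean normalized log2 intensity over 7 arrays (horizontal axis) for all 9569 genes tested (grey), with the 10 members that passed the filter named. The 5 called members lie between -2.76 and -1.61 at low mean intensity, and the other 5 lie between -0.59 and 0.18.

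Genes that neighbour the members in the genome were taken from the RefSeq gene table, which held 47 of the 48 members. Leaving out members, there were 77 nearest protein-coding neighbours, of which 27 passed the filter. By limma 0 of them were called (3 lower and 1 higher at an unadjusted p under 0.05), and their median difference was -0.025. Some members neighbour each other, as Csn2 and Csn1s2a, the trefoil genes and the fibrinogen genes do. Fixed lists of other genes from the same organs, 121 in all, had 104 with a probe and 23 that passed. Spink1 was called lower, which is 4.35% of the 23 against 0.669% of all genes. By limma 0 were called higher (2 higher and 6 lower at an unadjusted p under 0.05). The 2 higher were Vtn, at 1.17 (SE 0.21), and Lcn2 of the gland list, at 2.10 (SE 0.59), chosen after their values were seen. Their median difference was -0.44, with 15 of 23 negative, against a median of 0.025 over all genes. The share of all genes at an unadjusted p under 0.05 is not given here, so the unadjusted counts have no background beside them.

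Several markers of medullary epithelium were also lower in RelB-/- thymus. Of 12 listed markers 10 passed the filter, 9 had negative differences and 4 were called lower, Aire, Fezf2, Ccl21a and Krt14. Of all genes tested, 0.669% were called lower. The mean level of the list was 7.80 to 8.04 on RelB+/- arrays and 6.38 to 6.84 on RelB-/- arrays, and all 11 markers with a probe were detected on at least 1 array. Aire averaged 6.48 in RelB+/- and 4.4 in RelB-/- thymus, and Fezf2 6.88 and 4.49. Of 9 cortical epithelium markers 7 passed, 5 of these had negative differences and 0 were called by limma. At an unadjusted p under 0.05 by limma, 2 were lower and 0 higher, again without a background beside them. The list means overlapped, at 8.37 to 9.01 in RelB+/- and 8.19 to 8.71 in RelB-/- thymus. Among them Krt8 (-0.94, SE 0.27) and Krt18 (-0.97, SE 0.27), chosen after their values were seen, had groups that did not overlap. The same held for 6.25% of all genes in the lower direction. In whole tissue, fewer epithelial cells of a type and less RNA of a gene in each cell cannot be told apart, and the part of the epithelial change in the levels of the members was not tested.

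Transcripts of other tissues varied between the extracts. On RelB+/- 2 and RelB-/- 3, the arrays with heart muscle transcripts, Gp2 read 7.27, the highest RelB+/- value, and 4.24, the lowest RelB-/- value. Without both arrays the same 5 members were called. All 6 adipocyte genes that passed had negative differences, with a median of -1.06 and 0 called by limma. The mean of that list was 6.25 and 6.57 on RelB-/- 1 and RelB-/- 2, below the 7.44 to 8.86 of the RelB+/- arrays, and 9.15 on RelB-/- 3. RelB-/- 3 had both the highest adipocyte mean and the highest mean of the further liver list, at 8.67. The thyroid and parathyroid list ranged from 5.17 to 6.81 on RelB+/- and from 4.88 to 5.93 on RelB-/- arrays. It rested on Pth and Tg, both negative, with a median difference of -0.96 and 0 called. The part of these tissues in the levels of the members was not tested.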

How the data were processed

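RNA from 7 thymi was hybridised to Illumina bead arrays. Probe intensity values were deposited by the authors without normalization, each with a detection p-value, per the file headers. The submitters' processing notes name GenomeStudio, with no settings. A table of processed values, read here as log2 values from their range, was also deposited by the authors. How it was made is not given.

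Background was corrected with limma 3.58.1 in R 4.3.3 (normexp from detection p-values, offset 16), followed by a log2 transformation and quantile normalization. Probes detected on at least 3 arrays (12465 of 25695) were kept, and the brightest kept probe stood for each gene, giving 9569. Genotypes were compared by lmFit and eBayes with Benjamini-Hochberg adjustment. The fit was tested on simulated data. Members, organ groups and lists were chosen with earlier results of these data known. Full values are given for called members, for members with a log2 difference of at least 1 whose groups did not overlap, and for the 2 brightest of each organ group that passed. Of the other lists, called genes were to be named. Prss2, Cpb1, Cel, Clps, Xdh, Lalba, Wap, Pth, Tg, Krt8, Krt18 and Cd8a were added with their values in view. So were Vtn, Lcn2, Chga, Guca2a, Rnase1 and Scg5. Of 25695 probes, 23976 had 1 symbol, 0 several and 1719 none. Array number limits the precision. Alternatives covered background, offset, normalization, filter, variance model, weights, probe rule, a replicate block and arrays left out.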

Additional observations from a re-analysis of the deposited data

Results flagged for a closer look

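Dixon's test was applied to the 4 RelB+/- levels of each of the 45 member probes, and 6 probes had 1 array far from the other 3. Chance gives about 1 in 20 such results, and most of these probes lie at background. Crabp1 read 4.97 on RelB+/- 2 against 4.36 to 4.38 on the others, and this reading was detected. Pyy read 5.17 on RelB+/- 4 against 4.43 to 4.54, also detected. The remaining readings were not detected. Csn1s2a read 4.82 on RelB+/- 3, Pmch 4.86 on RelB+/- 1 and Rbp3 4.70 on RelB+/- 2, each above the other arrays, and Fgg read 4.54 on RelB+/- 2, below the others.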

How the results depend on the processing

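Gp2, Vmo1 and Urah stayed lower and called in all 20 alternatives, Csn2 in 19 and Tff1 in 18. The sizes moved with the processing. Without background correction the differences were -1.17 for Gp2, -0.92 for Vmo1, -0.97 for Urah, -0.74 for Csn2 and -0.56 for Tff1. Members called lower numbered 5 in every alternative except the authors' processed values (3, without Csn2 and Tff1) and the replicate block (4, without Tff1, at -1.63). Same-numbered arrays did not pair (correlations of deviations 0.32, -0.18 and -0.20, and only RelB-/- 1 correlated best with its own number). Over all genes the block gave 23 lower and 1 higher, the processed values 23 and 2, and leaving out the 2 arrays with heart muscle transcripts 32 and 6. Genes called higher were 6 without background correction and 6 without a filter. With single arrays left out, counts ran from 34 to 65 lower (34 without RelB-/- 1, 42 without RelB+/- 1) and from 4 to 7 higher. The median difference of members that passed was -0.38 without background correction, -0.58 at offset 50, -0.21 with processed values, -0.077 without a filter, -0.27 with detection on 1 array, -2.09 at a detection p under 0.01, -1.51 without the heart arrays and -2.02 to -0.99 with single arrays left out. The members that passed numbered 10 in the first 3 of these and from 6 to 41 with other filters; the cause of the moves at an unchanged filter was not tested. Detected readings in RelB+/- were 19.4% at a detection p under 0.01, against 2.22% in RelB-/-, an alternative chosen after seeing the data. Among genes not called, Fgg turned to 0.15 (range -0.18 to 0.15) and Reg1 to 0.030 (range -0.17 to 0.030) with single RelB-/- arrays left out. Signal over background limits all dim members.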
